A study of Nannochloropsis oceanica with 6 samples.

Results

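A short pulse of red light was compared with continued darkness in the unicellular marine alga Nannochloropsis oceanica, strain CCMP1779, by sequencing of polyadenylated RNA. The comparison covers every gene model whose FPKM averaged 1 or more across the 6 libraries of the study, which were 9087 of the 10641 models in the deposited table. FPKM, fragments per kilobase of transcript scaled to the depth of a library, is a level per unit of transcript length. All cells had been grown in cycles of 12 h light at 30 μmol s−1 m−2 and 12 h dark, at 22 °C and 100 rpm, and were moved to darkness at ZT12, the 12th hour after lights on, for 36 h. The red group (2 libraries) then received 5 min of red light at 20 μmol s−1 m−2 and 15 min of further darkness before harvest. The dark group (2 libraries) stayed in darkness with no pulse, and a blue group (2 libraries), pulsed with blue light of the same length and intensity, is used below only to show where the red response differed from the blue one. The labels do not say whether the libraries of a group came from separate cultures, so p-values measure only the spread between these libraries.

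Nannochloropsis belongs to the stramenopiles, algae whose plastid derives from a red alga, and it is known for its small compact genome, its storage oil and its long-chain polyunsaturated fatty acids. Its light harvesting proteins bind chlorophyll a and carotenoids, among them violaxanthin. The blue-light receptors known in this lineage are aureochromes, transcription factors that carry a light-sensing LOV domain, and members of the cryptochrome and photolyase family. Red light is absorbed by chlorophyll and so drives photosynthesis, and algae coming out of a long night are known to adjust genes for protein synthesis, pigments and primary metabolism.

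The sum of FPKM over all models was 767193 and 767747 in the dark libraries, 588092 and 615972 in the red libraries and 624861 and 662229 in the blue libraries. From the smallest steps between low values, 1 FPKM stood for 1.69 and 1.33 times as many fragments in the red libraries as in dark replicate 1, and for 1.09 times as many in dark replicate 2. The absolute depth is unknown. These sums and depths moved with the groups, and their part in the results was not tested. Replicates of a group differed by a median of 0.0724 (dark), 0.112 (red) and 0.143 (blue) on the log2 scale. The first principal component, with 76.7% of the variance, ordered the libraries from dark (−51.8 and −50.9) through red (−1.88 and 1.6) to blue (49.5 and 53.5), and the second, with 18.4%, set the red libraries (29.5 and 28.7) apart from the dark (−14.8 and −14.5) and blue libraries (−12.3 and −16.6). RNA was measured in bulk, so fewer cells with a transcript and less of it per cell cannot be told apart.

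Each model was tested with limma on log2(FPKM + 1), and a model was called where the p-value adjusted over all 9087 models was under 0.05. Of the 9087 models, 3066 (33.7%) were higher and 2684 (29.5%) lower after the red pulse than in darkness. Both red libraries lay above both dark libraries in 4073 models (44.82%) and below them in 3541 (38.97%). Most of these differences were small: the median absolute log2 difference was 0.41, and the 5th and 95th percentiles lay at −1.08 and 1.09. Calls of at least 2-fold numbered 565 higher (6.22%) and 538 lower (5.92%), of which 79 and 66 passed 4-fold. On TPM these counts were 1422 and 235, and after centring each library on its median 358 and 838. Of these models 4158 have, in the authors' deposited table, a q-value under 0.05 for this contrast, and 4127 of the 4158 were called here in the same direction. Read the other way, 5750 models were called here, of which 4127 have such a q-value. Of the 1103 calls of at least 2-fold, 1039 have one.

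Because the sums of FPKM differed between the groups, the split into higher and lower depended on the scaling. The median log2 difference of all models was 0.04 on FPKM, 0.37 on TPM (FPKM rescaled so that every library has the same sum), −0.12 after centring each library on its median and 0.01 after quantile normalization. Calls were 53.3% higher on FPKM, 77.3% higher on TPM (4958 higher and 1459 lower), 39.2% higher after centring (2256 and 3499) and 49.9% higher after quantile normalization (2750 and 2759). Models called in 1 direction on FPKM, TPM and centred values alike, below "on all 3 scalings", numbered 2256 higher (24.8%) and 1459 lower (16.1%). The 2256 were the models called higher after centring, and the 1459 those called lower on TPM. TPM and centring shift all models of a library by nearly the same log2 amount, so the 3 scalings are not independent support. All 565 rises of at least 2-fold and 537 of the 538 falls of at least 2-fold were among them, which their size largely fixed in advance.

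**Figure D1:**
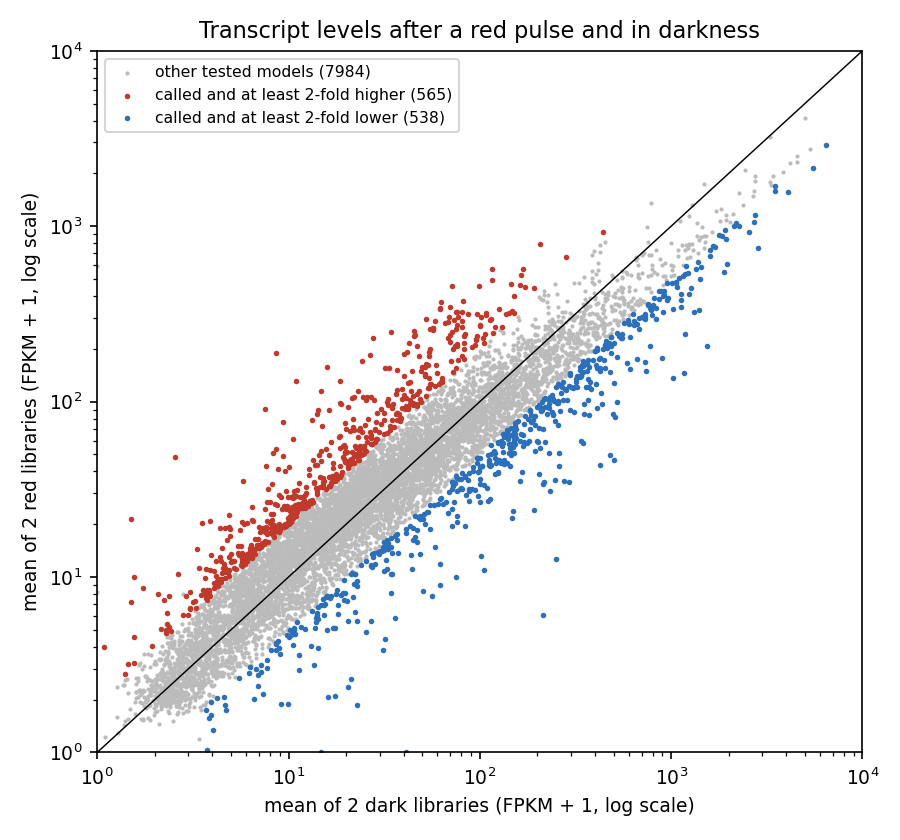
Mean FPKM + 1 in the 2 red libraries against mean FPKM + 1 in the 2 dark libraries for the 9087 tested models, both axes logarithmic; colours mark the 565 models called at least 2-fold higher and the 538 called at least 2-fold lower in red. The models with the highest levels in darkness lie mostly below the diagonal of equal levels.

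The 10 largest rises among described models that overlap no other model covered RNA-binding proteins, translation, metabolism and transport. The largest was an armadillo-type model (611415, scaffold 56, 39271 to 44788) annotated as a predicted RING-type E3 ubiquitin ligase, an enzyme class that attaches ubiquitin to other proteins. It stood at 10.1 and 5.11 FPKM in the dark libraries and 198 and 176 FPKM in the red libraries (log2 change 4.51, SE 0.23, adjusted p = 9.42e-07). Dark replicate 1 was about double dark replicate 2 for this model, and both lay far below both red libraries. A model with Pumilio RNA-binding repeats (609232, scaffold 44, 148899 to 151479), a family known to repress translation of target mRNAs in animals and yeast, was at 14.6 and 15.2 FPKM in darkness and 143 and 169 FPKM after red (log2 change 3.29, SE 0.095, adjusted p = 8e-08). A trigger factor model (598404, scaffold 19, 296411 to 298741), in bacteria a chaperone bound to the ribosome at the exit of new proteins, was at 8.25 and 8.51 and then 66.1 and 83.9 FPKM (log2 change 3.01, SE 0.11, adjusted p = 1.85e-07). For both the 2 groups were well apart, with the 2 dark libraries nearly level. Most models named here and below were picked by the size of their change in these same libraries. That their groups stand apart largely follows from this choice and is no added support.

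Further rises of this size were a 60S ribosomal protein L9 model (646820), from 13.9 and 13.6 FPKM in darkness to 103 and 125 FPKM (log2 change 2.96, adjusted p = 1.58e-07), and a DEAD/DEAH box RNA helicase (249082), an enzyme that unwinds RNA, from 23.1 and 23.3 to 154 and 184 FPKM (log2 change 2.81, adjusted p = 1.32e-07). S-adenosylmethionine synthetase (359190), which makes the methyl donor of most cellular methylation, went from 12.97 and 13.7 to 86.9 and 90.9 FPKM (log2 change 2.65, adjusted p = 1.58e-07). These models showed no overlap between the red and dark libraries. An elongation factor-type GTPase (572801) was at 7.96 and 7.22 FPKM in darkness and 46.7 and 58.6 FPKM after red (log2 change 2.64, adjusted p = 3.17e-07), while the blue libraries held 970.3 and 981 FPKM. A pyrophosphate-energised proton pump (596653), which moves protons into vacuoles at the cost of pyrophosphate, went from 7.17 and 7.497 to 47.99 and 52.3 FPKM (log2 change 2.62, adjusted p = 1.91e-07). The red libraries lay above the dark ones in each case. The others were a model with a Zn(2)-C6 DNA-binding domain (600879, 4.16 and 5.42 FPKM in dark and 29.8 and 39.1 FPKM in red libraries, log2 change 2.61, adjusted p = 2.17e-06) and a nitrite or sulphite reductase (600410, 12.8 and 13.4 FPKM in dark and 77.5 and 89.5 FPKM in red libraries, log2 change 2.58, adjusted p = 1.85e-07), an enzyme class that reduces nitrite to ammonium or sulphite to sulphide.

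Among the 10 largest falls were 3 chaperone models. A heat shock protein 70 of the HSP105/HSP110 type (574559, scaffold 2, 690577 to 694080), a class that recharges Hsp70 with ATP, was at 1178 and 1165 FPKM in the dark libraries and 129.8 and 161 FPKM in the red libraries (log2 change −3.01, SE 0.14, adjusted p = 6.47e-07). A co-chaperone of the STI1 type (597437, scaffold 18, 228028 to 230154), which links Hsp70 to Hsp90, was at 1581 and 1508 FPKM in darkness and 186 and 229 FPKM after red (log2 change −2.90, SE 0.12, adjusted p = 3.16e-07). The model annotated as an AAA ATPase of the HSP104 kind (597514, scaffold 18, 301445 to 304542), in yeast an enzyme that pulls apart protein aggregates, was at 295 and 285 and then 31.1 and 36.9 FPKM (log2 change −3.06, SE 0.10, adjusted p = 1.32e-07). In each of these 3 models both red libraries were far below both dark libraries.

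The deepest fall in this group was that of a tetratricopeptide repeat model (609277, scaffold 45, 6308 to 6883), a repeat that mediates protein contacts, from 428 and 418 FPKM to 44.0 and 41.2 FPKM (log2 change −3.28, adjusted p = 1.58e-07). A fatty acid elongase (572755, scaffold 1, 983532 to 985675), of the enzymes that lengthen acyl chains, fell from 104 and 105 to 9.29 and 10.5 FPKM (log2 change −3.27, adjusted p = 8e-08). An actin-family model (580844) fell from 16.9 and 16.2 to 0.89 and 1.29 FPKM (log2 change −3.07, adjusted p = 4.7e-07), close to the lower limit of the tested models. The groups did not overlap in any of them. An armadillo repeat model (668864) went from 274 and 274 to 32.9 and 35.7 FPKM (log2 change −2.96, adjusted p = 8e-08), and a short-chain dehydrogenase (591729) from 72.6 and 76.02 to 8.04 and 10.1 FPKM (log2 change −2.91, adjusted p = 5.3e-07). A family 47 mannosidase (645801), which in other eukaryotes trims the sugar chains of glycoproteins, went from 15.3 and 14.8 to 1.09 and 1.07 FPKM (log2 change −2.95, adjusted p = 5.01e-07), and a WW domain model related to the NEDD4 ubiquitin ligases (604308) from 23.7 and 16.5 to 1.62 and 1.603 FPKM (log2 change −2.99, adjusted p = 1.44e-06). For these 4 models the red values were likewise below all dark values.

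**Figure D2:**
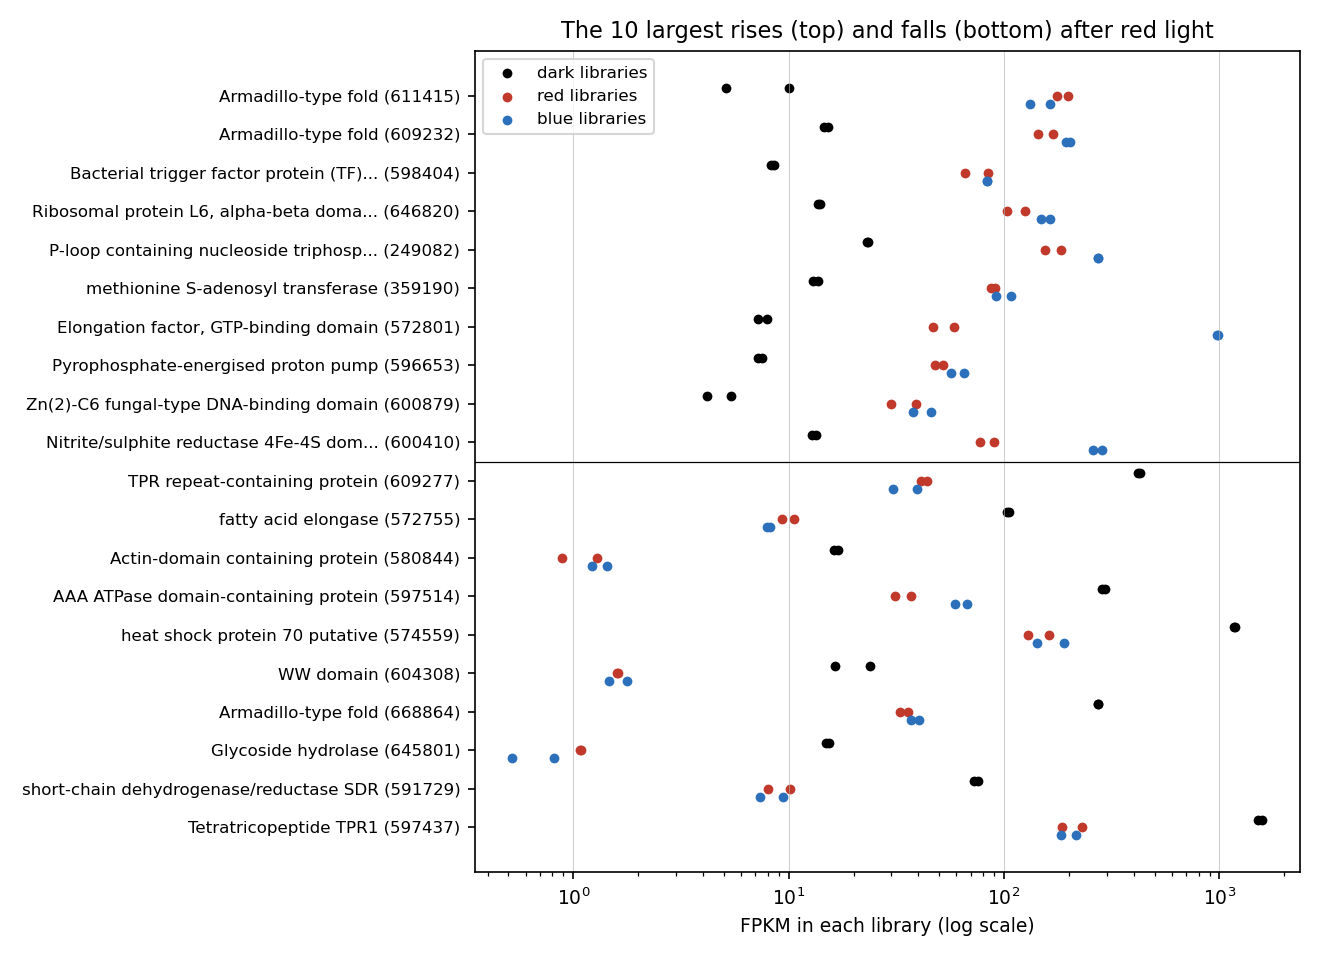
FPKM per library on a logarithmic axis for the 10 largest rises and the 10 largest falls among described models without overlap; points are single libraries of the dark, red and blue groups. The 2 points of a group lie close together next to the distance between dark and red, and the elongation factor-type GTPase 572801 is the model where the blue points lie farthest from the red ones.

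The lists below were made by matching words of the annotation, so some hold models of another function than their name. Genes of protein synthesis rose broadly, and the counts of each list below are to be read against the 33.7% and 29.5% of all tested models that were called higher and lower. Cytosolic ribosomal proteins, the models annotated as parts of the 40S or 60S subunit only, were called higher in 69 of 72 tested members and lower in 0, and the same 69 calls held on all 3 scalings. The share of all FPKM that they took was 0.851% and 0.916% in the dark libraries and 3.09% and 3.15% in the red libraries. The median ratio of red to dark was 3.33 for the 26 tested members of the small subunit, all of which rose, and 3.07 for the 46 of the large subunit, of which 43 rose. The median log2 change of the 72 was 1.67, against 0.04 for all tested models, and 59 rose by at least 2-fold. The ratio ran from 0.979 to 8.30.

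The 3 members not called were a model of the L14/L17/L23 type (597315, overlapping another model, 218 and 221 FPKM in dark and 241 and 272 FPKM in red libraries), a ubiquitin fusion of L40 (540028, 37.6 and 37.9 FPKM in dark and 36.9 and 38.5 FPKM in red libraries) and L34 (611953, 220.1 and 224 FPKM in dark and 207 and 228 FPKM in red libraries). Their log2 differences were 0.22, −0.0027 and −0.03. An L29 model (577213) was among the largest rises of the list, from 17.9 and 17.2 FPKM to 131 and 129 FPKM (log2 change 2.82, adjusted p = 8e-08). Over all 152 ribosomal protein models, 109 rose and 16 fell. This division of the list by subunit annotation was made after its values had been seen.

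Ribosomal proteins annotated to the plastid, the mitochondrion or a 30S or 50S subunit did not move in 1 direction. Of 40 tested members 15 rose and 13 fell, 11 and 9 on all 3 scalings, with a median log2 change of 0.03 whose majority of rises turned with centring. An L28 model (575479) was at 70.4 and 73.6 FPKM in darkness and 295 and 288 FPKM after red, a log2 change of 2.00. A 50S L34 model (572477, overlapping) fell from 204 and 205 to 92.5 and 89.3 FPKM (log2 change −1.16, adjusted p = 9.97e-06), and a mitochondrial subunit model (571464, overlapping) from 119.7 and 119 to 39.6 and 35.7 FPKM (log2 change −1.64, adjusted p = 1.11e-06). Members thus moved both ways within these organellar annotations.

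**Figure D3:**
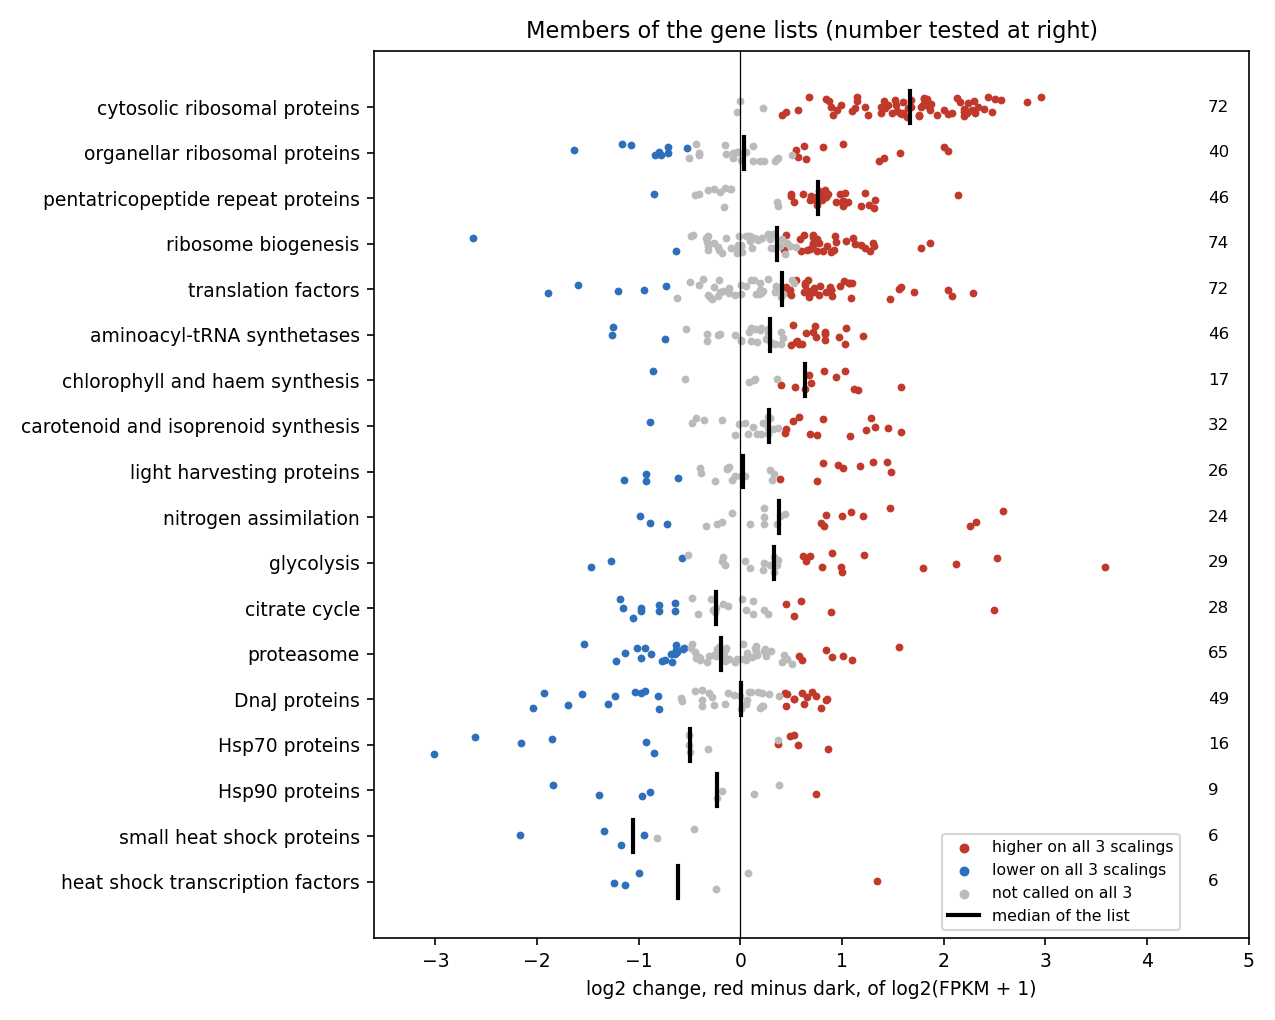
Log2 change, red minus dark, of each tested member of the named gene lists, 1 point per model, with a black bar at the median of each list and colours for calls that hold on all 3 scalings. Cytosolic ribosomal proteins lie almost wholly above 0 around a median of 1.67, and the 6 small heat shock proteins lie below 0.

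Pentatricopeptide repeat proteins, known for processing and stabilising RNA in plastids and mitochondria, were called higher in 35 of 46 tested members and lower in 3, and 34 and 1 of them on all 3 scalings. Their median log2 change was 0.77. The largest rise was that of model 602109, at 66.3 and 69.3 FPKM in the dark libraries and 291 and 312 FPKM in the red libraries (log2 change 2.14, adjusted p = 1.87e-07), and the next was 530361, at 57.2 and 49.6 and then 124 and 146 FPKM (log2 change 1.32, adjusted p = 9.15e-06). Neither showed any overlap between groups.

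Ribosome biogenesis factors rose in 39 of 74 tested members and fell in 8, 31 and 2 on all 3 scalings (median log2 change 0.36). A Nop-domain model (38253) of the kind that forms box C/D particles, which guide methylation of ribosomal RNA, went from 25.8 and 28.1 FPKM in darkness to 93.7 and 108 FPKM (log2 change 1.86, adjusted p = 1.07e-06). Fibrillarin (573542), the methyltransferase of those particles, went from 16.3 and 18.4 to 54.5 and 69.7 FPKM (log2 change 1.77, adjusted p = 7.53e-06). Both rose without overlap, while a Utp23-like model (130052, overlapping), named for a factor that processes ribosomal RNA in yeast, fell from 37.3 and 32.6 to 5.295 and 4.33 FPKM (log2 change −2.63, adjusted p = 2.74e-06).

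Translation factors rose in 40 of 72 tested members and fell in 11, 33 and 5 on all 3 scalings, with a median log2 change of 0.41. A model of the eIF5A type (578559, overlapping), a factor that helps ribosomes past difficult peptide bonds, was at 19.9 and 21.3 FPKM in darkness and 98.6 and 110.1 FPKM after red (log2 change 2.29, adjusted p = 3.61e-07). An ABC-type ATPase of the translation list (544905, overlapping) was at 118 and 111 and then 449 and 531 FPKM (log2 change 2.08, adjusted p = 7.21e-07). Both were higher in red without overlap. Against this direction, eIF3b (592834, overlapping), part of the factor that brings mRNA to the small subunit, fell from 194 and 190.3 to 48.2 and 53.7 FPKM (log2 change −1.90, adjusted p = 5.01e-07), and eRF1 (630664), which reads stop codons, from 135 and 129.8 to 39.2 and 47.2 FPKM (log2 change −1.60, adjusted p = 2.22e-06).

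Aminoacyl-tRNA synthetases, which load tRNAs with amino acids, rose in 25 of 46 tested members and fell in 6, 17 and 3 on all 3 scalings. An asparaginyl enzyme (574326, overlapping) went from 18.5 and 18.7 FPKM to 42.4 and 46.2 FPKM (log2 change 1.21, adjusted p = 6.75e-06). A glycyl enzyme (580536) went from 46.7 and 45.5 to 91.9 and 99.5 FPKM (log2 change 1.04, adjusted p = 1.62e-05). The groups stood apart in both. An alanyl enzyme (582534) fell from 216 and 207 to 84.02 and 92.6 FPKM (log2 change −1.25, adjusted p = 3.61e-06). A class Ic enzyme annotated as tyrosyl-tRNA synthetase (587304) fell from 22.2 and 21.3 to 7.25 and 9.82 FPKM (log2 change −1.27, adjusted p = 5.22e-05). Other alanyl models were called higher: 595815 on all 3 scalings (log2 change 0.83), and 670547 (overlapping, 0.25) but not after centring. Asparaginyl model 598099 was not called (log2 difference 0.11).

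RNA polymerase subunits and their factors rose in 30 of 61 tested members and fell in 14, 23 and 7 on all 3 scalings, and the large subunits of the 3 nuclear enzymes did not move together. RNA polymerase I makes ribosomal RNA: its second largest subunit (530132) was at 6.97 and 6.52 FPKM in darkness and 24.1 and 27.3 FPKM after red (log2 change 1.78, adjusted p = 6.62e-06), and its largest subunit (628222) at 4.27 and 3.77 and then 10.8 and 14.4 FPKM (log2 change 1.42, adjusted p = 2.72e-05). RNA polymerase III makes tRNA and 5S RNA, and its largest subunit (599306) was at 2.68 and 2.99 and then 6.66 and 6.88 FPKM (log2 change 1.02, adjusted p = 0.000109). All 3 were higher in both red libraries. RNA polymerase II makes mRNA: its largest subunit (571679) was at 197 and 198 FPKM in darkness and 118 and 124 FPKM after red (log2 change −0.70, adjusted p = 5.42e-05), and its second largest (537101) at 269 and 252 and then 117 and 129.8 FPKM (log2 change −1.07, adjusted p = 1.26e-05). Both were lower in both red libraries and remained called lower on TPM and on centred values.

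Heat shock and chaperone genes were prominent among the falls. Several of them were abundant in darkness, where the small heat shock list had medians of 1263 and 1577 FPKM. The 177 tested models at a mean of 500 FPKM or more had a median log2 difference of −0.82 over all annotations. The part of level in the falls of chaperones was not tested. All 6 tested small heat shock proteins, chaperones that hold unfolded proteins in solution, were called lower, 4 of them on all 3 scalings, with a median log2 change of −1.06. One of the 6 (536374) is annotated as a NUDC-type protein. Another (631558) was not called after quantile normalization (log2 difference −0.098). The largest fall among the 6 (607932, overlapping) was from 229.6 and 226 FPKM in darkness to 47.3 and 52.6 FPKM (log2 change −2.17, adjusted p = 6.1e-07). Of 16 models in the Hsp70 list 9 fell and 6 rose (6 and 5 on all 3 scalings). The list's words also matched models outside the Hsp70 family: the glycoproteases 577481 and 624907, both among the rises, and the Hsp70-interacting protein 587299, among the falls. A DnaK-type member (539299) fell from 412 and 401 to 80.01 and 102 FPKM (log2 change −2.16, adjusted p = 1.28e-06), and the Hsp70-interacting model, which carries a heat shock chaperonin-binding motif (587299, overlapping), from 257 and 263 to 39.6 and 43.8 FPKM (log2 change −2.61, adjusted p = 1.87e-07). These falls were without overlap between the groups. The sources used here do not say how reads shared between near-identical family members were counted, so single members of the Hsp, light harvesting and desaturase families are uncertain.

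The Hsp90 list held 9 tested models, of which 4 fell and 2 rose. Of the models of Hsp90 itself, which folds kinases and other clients, 535301, 540045 and 635945 fell on all 3 scalings and 630170, annotated to the endoplasmic form, was not called (log2 difference 0.13). The rises were a co-chaperone of the CNS1 type (641462) and a MORC-type ATPase (550750), and the other fall and the other models not called were of the CPR7/cyclophilin type. The most abundant Hsp90 model (535301, overlapping) was at 4663 and 4409 FPKM in darkness and 2175 and 2484 FPKM after red (log2 change −0.96, adjusted p = 7.69e-05). After quantile normalization the difference of 535301 was −0.07 and not called. DnaJ proteins, partners of Hsp70, rose in 16 of 49 and fell in 17, a balance that turned on TPM, but all 7 of their changes of at least 2-fold were falls. One of these (626393, overlapping) went from 432 and 425 to 105 and 118 FPKM (log2 change −1.93, adjusted p = 1.33e-06). The DnaJ list also holds SANT/Myb domain models that matched only through an annotation to Zuotin-related chaperones. They were among both the rises and the falls, and 523144 (log2 change −1.69) was 1 of the 7. Chaperonins and prefoldin were mixed (8 higher and 10 lower of 26, turning on TPM), in a list that also holds alcohol and sorbitol dehydrogenases with a GroES-like fold. A chaperonin (580129) was called higher at 82.8 and 105 FPKM after red against 31.1 and 32.9 FPKM in darkness (log2 change 1.52, adjusted p = 1.23e-05). More abundant models of the same Cpn60 annotation fell on all 3 scalings: 36428, from 1115 and 1077 to 446.6 and 570 FPKM (log2 change −1.12), and 542621 (overlapping, −0.81). The Cpn10 models 584046 (−1.48), 604299 (overlapping, −1.32) and 591455 (overlapping, −0.69) fell likewise. A cyclophilin (612904), a peptidyl-prolyl isomerase, fell from 436 and 435 to 82.1 and 109.7 FPKM (log2 change −2.19, adjusted p = 2.48e-06).

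Heat shock transcription factors, which drive chaperone genes in other eukaryotes, had 5 tested models with the HSF-type DNA-binding domain, of which 3 fell and 1 rose on all 3 scalings. The fifth (296093) and a heat shock factor-binding protein (575037) in the same list were not called. Those that fell were 595798 (overlapping, 1344 and 1358 FPKM in dark and 559 and 579.5 FPKM in red libraries), 533304 (overlapping, 341 and 322 FPKM in dark and 146 and 154 FPKM in red libraries) and 657947 (258 and 254 FPKM in dark and 132 and 124 FPKM in red libraries), and the first 2 changed by −1.25 and −1.14 on the log2 scale. The one that rose, 26166, was at 13.4 and 11.7 FPKM in darkness and 33.9 and 32.8 FPKM after red (log2 change 1.34, adjusted p = 6.36e-06). The groups did not overlap in any of these 4 models.

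Protein breakdown showed more falls than rises on FPKM, and the direction of each of its lists turned on TPM. The proteasome list had 27 falls and 12 rises among 65 tested models, 17 and 7 on all 3 scalings. The assembly chaperone PSMD9 (596781) fell from 504 and 539 to 182 and 176 FPKM (log2 change −1.54, adjusted p = 2.37e-06) and the ATPase RPT3 (591778, overlapping), part of the cap that unfolds substrates, from 211 and 225 to 91.3 and 93.8 FPKM (log2 change −1.23, adjusted p = 5.41e-06). The largest rise of the list was that of a model with a PCI domain annotated as eIF3a (656920, 23.4 and 24.7 FPKM in dark and 66.99 and 78.8 FPKM in red libraries, log2 change 1.56, adjusted p = 2.48e-06), a translation factor rather than a proteasome subunit, and the rises also held other eIF3 models and the ribosome biogenesis factors Pno1 and Nob1. Clp, Lon and FtsH proteases fell in 11 of 27 tested models and rose in 5.

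Light harvesting proteins moved in both directions. Of 26 tested members 12 rose and 5 fell, 9 and 4 on all 3 scalings, and the majority of rises turned with centring (median log2 change 0.03). The member with the largest rise (572644) was at 17.7 and 19.9 FPKM in darkness and 53.01 and 55.4 FPKM after red (log2 change 1.48, adjusted p = 1.38e-05). The next (572716) was at 36.9 and 41.6 and then 105 and 112 FPKM (log2 change 1.44, adjusted p = 4.15e-06). Both rose from low levels without overlap. A far more abundant member (591694) fell from 929 and 944 FPKM to 476 and 510.5 FPKM (log2 change −0.92, adjusted p = 3.87e-05), and 581022 fell from 14.6 and 14.1 to 5.703 and 6.11 FPKM (log2 change −1.15, adjusted p = 1.78e-05). Summed over the list, the members took 0.871% and 0.912% of all FPKM in the dark libraries and 1.03% and 1.04% in the red libraries. The summed FPKM itself went the other way, from 6682 and 7004 in the dark libraries to 6060 and 6419 in the red libraries. The direction of the sum thus depended on the scaling.

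Chlorophyll and haem synthesis rose in 12 of 17 tested members and fell in 2, 11 and 1 on all 3 scalings, with a median log2 change of 0.63. Glutamyl-tRNA reductase (589090), the entry enzyme of the pathway, went from 75.3 and 77.01 FPKM to 160.3 and 183 FPKM (log2 change 1.16, adjusted p = 9.78e-06). Porphobilinogen deaminase (574904), which joins the pyrrole units, went from 51.7 and 53.5 to 147 and 172 FPKM (log2 change 1.58, adjusted p = 3.01e-06). The groups were apart in both.

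Carotenoid and isoprenoid synthesis rose in 21 of 32 and fell in 4, 13 and 1 on all 3 scalings. Phytoene desaturase (583244, overlapping), an early step of carotenoid synthesis, went from 10.4 and 10.4 to 30.3 and 36.1 FPKM (log2 change 1.58, adjusted p = 5.58e-06). Violaxanthin de-epoxidase (590958), which converts violaxanthin to zeaxanthin under strong light in plants and algae, went from 9.04 and 10.4 to 28.4 and 28.3 FPKM (log2 change 1.46, adjusted p = 3.77e-06). In both the red libraries were above the dark ones, whereas 1-deoxyxylulose-5-phosphate synthase (530268), the entry to the plastid isoprenoid route, fell from 1505 and 1514 to 795 and 839 FPKM (log2 change −0.89, adjusted p = 3.52e-05). Other models with the same annotations fell: phytoene desaturase 128587 from 254 and 253 to 172 and 192 FPKM (log2 change −0.48, adjusted p = 0.000889) and violaxanthin de-epoxidase 595121 from 23.9 and 22.03 to 18.6 and 16.9 FPKM (log2 change −0.35, adjusted p = 0.00887), and neither was called on TPM. The synthase 530268 was not called after quantile normalization (log2 difference −0.09).

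The photoreceptor list had 6 tested members, and none was called at 2-fold or more in either direction. A cryptochrome or photolyase model (571816) was at 14.3 and 14.8 FPKM in darkness and 24.4 and 28.6 FPKM after red (log2 change 0.82, adjusted p = 0.000335), and a photolyase FAD-domain model (529956) at 9.18 and 8.69 and then 14.98 and 14.9 FPKM (log2 change 0.68, adjusted p = 0.000319). Aureochrome 1 (550823) fell from 811 and 763 to 407 and 436 FPKM (log2 change −0.90, adjusted p = 2.4e-05). These 3 calls held on all 3 scalings. Another model of the photolyase family, annotated as cryptochrome DASH (622582), was not called at 1.03 and 0.762 FPKM in darkness and 0.515 and 0.536 FPKM after red, and was called lower after centring. Aureochrome 3 (582424) fell on all 3 scalings (log2 change −0.53, adjusted p = 0.000705), though its difference was 0.12 after quantile normalization.

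Nitrogen assimilation rose in 14 of 24 tested members and fell in 4, 10 and 3 on all 3 scalings (median log2 change 0.38). The list also holds acetyl-CoA carboxylases and folylpolyglutamate synthases. Nitrate reductase (590448, scaffold 11, 666534 to 670736), the first step from nitrate, was at 0.807 and 0.661 FPKM in darkness, below 1 FPKM in both libraries, and 6.78 and 8.64 FPKM after red (log2 change 2.32, adjusted p = 1.22e-06). Carbamoyl-phosphate synthase (584898), which starts arginine and pyrimidine synthesis, was at 21.3 and 20.7 and then 96.3 and 114 FPKM (log2 change 2.26, adjusted p = 3.17e-07). An ammonium transporter (557399) was at 50.9 and 50.02 and then 131 and 154 FPKM (log2 change 1.47, adjusted p = 2.74e-06). Each of these was higher in both red libraries. The enzymes that fix ammonium behaved alike: glutamine synthetase (581084) was at 63.3 and 61.4 FPKM and then 121 and 148 FPKM (log2 change 1.09, adjusted p = 2.17e-05), and ferredoxin-dependent glutamate synthase (637990) at 46.1 and 45.7 and then 87.98 and 98.1 FPKM (log2 change 1.00, adjusted p = 1.28e-05). A more abundant ammonium transporter (588441) was not called, at 152.0 and 151.9 FPKM in darkness and 160.4 and 198.7 FPKM after red (log2 difference 0.23). Nitrite or sulphite reductase 593348, at 402 and 403 FPKM in darkness and 486 and 577 FPKM after red, was called higher (log2 change 0.39). That call was lost after centring.

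Sulphur assimilation and the methionine cycle rose in 9 of 21 and fell in 5. The rises of 573850 and 634099 were lost after centring, and the falls of 62465 and 606409 (overlapping) on TPM. The list also holds glutamate-cysteine ligases (604026, among the rises, and 671574, not called). Models annotated as similar to phosphopantothenoylcysteine synthetase (566855 and 522642), also in it, were not called. ATP sulphurylase (590408), which activates sulphate, went from 4.31 and 5.08 FPKM to 18.2 and 20.8 FPKM (log2 change 1.85, adjusted p = 1.78e-06). Methionine synthase of the methyltetrahydropteroyltriglutamate type (616145) fell from 213 and 212 to 33.8 and 31.9 FPKM (log2 change −2.66, adjusted p = 1.32e-07), while S-adenosylmethionine synthetase, which uses its product, was among the largest rises given above. The methionine synthase models 591420 and 554589 were not called.

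In glycolysis 18 of 29 tested members rose and 4 fell, 12 and 3 on all 3 scalings. One phosphoglycerate kinase (543791) rose from 2.53 and 2.55 FPKM to 18.7 and 20.04 FPKM (log2 change 2.53, adjusted p = 3.59e-07), and another (613606), annotated as cytosolic-like, fell from 733 and 711 to 279.6 and 319.7 FPKM (log2 change −1.27, adjusted p = 7.53e-06). The falling model remained the more abundant of the pair in the red libraries. A model that joins 2 glycolytic enzymes, triosephosphate isomerase and GAPDH (623181, overlapping), rose from 10.3 and 9.66 to 128 and 134 FPKM (log2 change 3.59, adjusted p = 7.22e-08), and a histidine phosphatase of the phosphoglycerate mutase class (560365) fell from 19.1 and 19.4 to 6.003 and 6.65 FPKM (log2 change −1.47, adjusted p = 6.6e-06).

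The citrate cycle list had 15 falls and 6 rises among 28 tested members (9 and 5 on all 3 scalings), and its majority of falls turned on TPM. Its words also matched enzymes outside the cycle: isopropylmalate enzymes, which belong to leucine synthesis, and ATP-citrate lyase among the rises, and isopropylmalate enzymes, L-aspartate oxidase and a CoA transferase among the falls. Mitochondrial aconitase (550334) fell from 843 and 776 to 350.1 and 428 FPKM (log2 change −1.06, adjusted p = 3.85e-05). Models of cycle enzymes also rose on all 3 scalings: citrate synthase 599276 (log2 change 0.90), aconitase A 672461 (overlapping, 0.59) and malate dehydrogenase 625443 (overlapping, 0.52). Citrate synthase 588676 (overlapping, −0.29, not called on TPM) and malate dehydrogenase 629435 (overlapping, annotated as cytoplasmic, −1.15) fell. Models of cycle enzymes that fell on all 3 scalings also included fumarase 597715 (overlapping, −0.98) and dihydrolipoamide succinyltransferase 599068 (overlapping, −0.80). Succinate dehydrogenase models 576315 (flavoprotein, −0.98) and 600093 (cytochrome b subunit, −0.65) fell likewise. ATP-citrate lyase (537141), which makes cytosolic acetyl-CoA for fatty acids, rose from 6.88 and 6.36 to 43.2 and 40.8 FPKM (log2 change 2.50, adjusted p = 1.58e-07). In respiration an assembly factor of ATP synthase (603379, Nuclear control of ATP synthase 2) fell from 152 and 140.2 to 21.1 and 20.1 FPKM (log2 change −2.77, adjusted p = 1.32e-07), and a complex I subunit of the MLRQ type (589488, overlapping) from 876 and 915 to 176 and 176 FPKM (log2 change −2.34, adjusted p = 1.84e-07). The gamma subunit of the chloroplast ATP synthase (601881, overlapping) rose from 68.7 and 74.3 to 181 and 213 FPKM (log2 change 1.45, adjusted p = 4.99e-06).

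Carriers of the mitochondrial inner membrane rose in 28 of 55 tested members and fell in 13, 23 and 9 on all 3 scalings. An ADP/ATP carrier (586185, overlapping), which exports ATP, was at 67.7 and 73.3 FPKM in darkness and 439 and 477 FPKM after red (log2 change 2.68, adjusted p = 2.49e-07). An aspartate/glutamate carrier (588428) was at 8.74 and 10.4 and then 54.9 and 65.6 FPKM (log2 change 2.53, adjusted p = 7.11e-07). Both were higher in both red libraries, and an oxodicarboxylate carrier (594452) was lower, at 605 and 647 FPKM after red against 1411 and 1354 FPKM in darkness (log2 change −1.14, adjusted p = 8.88e-06).

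Lipid genes split within families. Of 15 tested fatty acid desaturases, which place double bonds in acyl chains, 8 rose and 4 fell, and of 11 elongases 6 rose and 4 fell. A desaturase (639463) rose from 3.97 and 3.89 FPKM to 16.9 and 15.5 FPKM (log2 change 1.80, adjusted p = 1.33e-06) and a delta-6 type desaturase (580470, overlapping) fell from 426 and 408 to 172 and 177 FPKM (log2 change −1.25, adjusted p = 2.78e-06). An elongase (391778) rose from 20.5 and 20.9 to 63.5 and 77.8 FPKM (log2 change 1.72, adjusted p = 2.03e-06), in contrast to elongase 572755 described above. Diacylglycerol acyltransferases, which complete storage oil, held both a rise (641239, overlapping, 9.22 and 8.59 FPKM in dark and 27.9 and 26.98 FPKM in red libraries, log2 change 1.52, adjusted p = 1.86e-05) and a fall (580578, 77.5 and 79.0 FPKM in dark and 33.8 and 36.6 FPKM in red libraries, log2 change −1.13, adjusted p = 3.87e-05). A long-chain acyl-CoA ligase (603105), which activates fatty acids and was among the 10 most abundant models in darkness, fell from 4078 and 4125 to 1471 and 1640.5 FPKM (log2 change −1.40, adjusted p = 5.66e-06).

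Among signalling and cell division genes, a kinase annotated as WEE1 (593264), in yeast and animals the brake on entry into mitosis, was at 8.72 and 7.64 FPKM in darkness and below 1 FPKM in both red libraries, at 0.899 and 0.873 FPKM (log2 change −2.28, adjusted p = 1.6e-06). A cyclin B-type model (198387) rose from 10.5 and 10.99 to 23.7 and 26.1 FPKM (log2 change 1.14, adjusted p = 6.96e-06). A low molecular weight tyrosine phosphatase (594203) fell from 18.7 and 20.1 to 4.66 and 4.55 FPKM (log2 change −1.86, adjusted p = 2.11e-06). For these 3 models the libraries of the 2 groups did not overlap. They were picked by the size of their change, so they give no direction for cell division genes as a set. Protein kinases as a list rose in 51 and fell in 60 of 180 tested models, and that order turned on TPM. A potassium channel model with a cyclic nucleotide-binding domain (585970) rose from 3.94 and 3.601 to 14.4 and 16.1 FPKM (log2 change 1.77, adjusted p = 1.89e-06).

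Few models crossed from near absence to presence. Only 2 tested models were below 1 FPKM in both dark libraries and at 5 FPKM or more in both red libraries: nitrate reductase and an FtsJ-type RNA methyltransferase (524558, overlapping), at 0.265 and 0.725 FPKM in darkness and 24.6 and 16.5 FPKM after red (log2 change 3.84, adjusted p = 1.26e-06). The reverse held for 3 models, the WEE1-type kinase, a Ysc84 actin-binding domain model (573276, overlapping) and a NOT-family model of the CCR4-NOT complex, which shortens mRNA tails (532427, overlapping). The last 2 were at 38.4 and 41.9 FPKM and at 17.2 and 10.3 FPKM in darkness and are listed at about 0 in both red libraries, so no fold is given. The authors' q-values were 0.0847 for 524558, 0.343 for 573276 and 0.375 for 532427. They were 0.0001775 for nitrate reductase and for the WEE1-type kinase.

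The differences were also taken by level. Over the bins of mean FPKM the median log2 difference was −0.04 in the 1296 models at 1 to 5 FPKM, 0.19 in the 2505 at 5 to 20 FPKM and 0.16 in the 2302 at 20 to 50 FPKM. It was −0.04 in the 1395 models at 50 to 100 FPKM, −0.24 in the 1412 at 100 to 500 FPKM and −0.82 in the 177 at 500 FPKM or more. In the top bin 60 models (33.9%) fell and 6 (3.39%) rose by at least 2-fold, and its median was −0.47 on TPM and −0.98 after centring. The medians below 0 at 1 to 5, 50 to 100 and 100 to 500 FPKM turned positive on TPM (0.22, 0.31 and 0.11), and after centring the median at 20 to 50 FPKM was −0.0041. The 100 models with the highest levels in darkness took 25.9% and 25.8% of all FPKM in the dark libraries and 17.3% and 17.5% in the red libraries. A choice by dark level itself favours falls, so the 93 of these 100 that were called lower are given as a description.

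**Figure D4:**
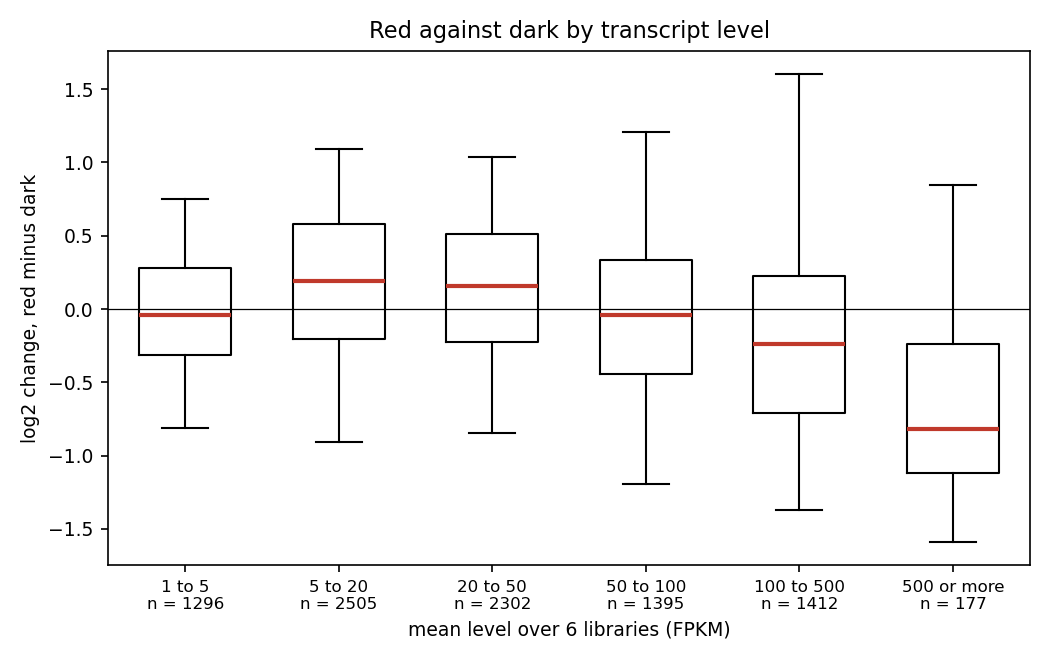
Log2 difference, red minus dark, of all tested models by bin of mean FPKM over the 6 libraries; red bars are medians, boxes span the quartiles and whiskers the 5th to 95th percentile. The median lies above 0 between 5 and 50 FPKM and at −0.82 at 500 FPKM or more, on FPKM; on TPM only the last bin has a median below 0.

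The most abundant model in darkness has no description (635895, scaffold 1, 1315938 to 1317048) and fell from 6472 and 6375 FPKM to 2793 and 3044 FPKM (log2 change −1.14, adjusted p = 2.98e-05). An Hsc70 model (195348) fell from 3793 and 3927 to 1845 and 2239.7 FPKM (log2 change −0.92, adjusted p = 0.000179). After quantile normalization the difference of 195348 was −0.11 and not called. An alpha carbonic anhydrase (594422), which interconverts carbon dioxide and bicarbonate, was among the 10 highest after red, at 2465 and 2419 FPKM in darkness and 1924 and 2280.0 FPKM after red, a difference that was not called (log2 difference −0.22, positive on TPM and after quantile normalization). Of the 100 highest models in darkness 74 were also among the 100 highest after red.

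By the KOG classes of the deposited annotation, which 4858 tested models carry, translation stood farthest from the background. Of its 314 models, 169 (53.8%) rose and 24 (7.64%) fell on all 3 scalings, against 24.8% and 16.1% of all tested models. RNA processing had 103 rises and 35 falls of 286 models on all 3 scalings, nucleotide metabolism 27 and 5 of 77, and coenzyme metabolism 28 and 10 of 79. Post-translational modification, protein turnover and chaperones had 141 falls (25%) and 96 rises (17%) of 564, and the majority of falls in this class turned when TPM was used alone. Cytoskeleton had 24 falls and 10 rises of 61 on FPKM, which also turned on TPM.

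**Figure D5:**
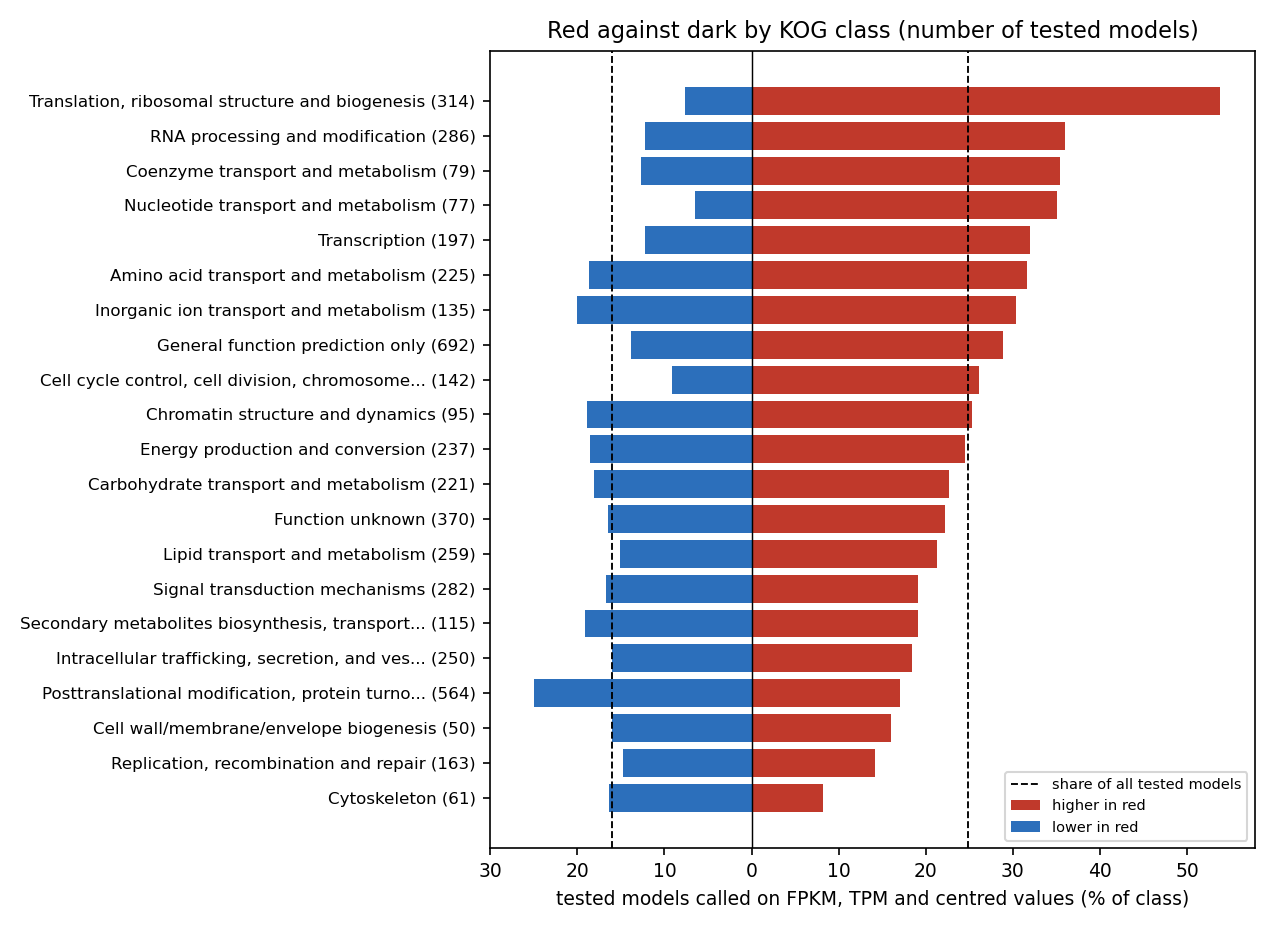
Percentage of the tested models of each KOG class called higher (right) and lower (left) in red on all 3 scalings, with dashed lines at the percentages of all tested models, 24.8% and 16.1%. Translation has the longest bar to the right, 53.8%, and the class that holds the chaperones reaches 25% to the left.

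The red and blue groups were compared directly in the same limma model. Red was called above blue in 2153 models (23.7%) and below blue in 2453 (27%). The order turned with the scaling: 2656 were above and 1970 below on TPM, 2746 and 1898 after centring, and 2576 and 2081 after quantile normalization. Of the 565 models that rose by at least 2-fold against darkness, 96 were above blue, 254 below blue and 215 not called against blue. Of the 538 that fell by at least 2-fold, 170 were above blue, 115 below blue and 253 not called. These orders within the rises and the falls held on TPM, after centring and after quantile normalization. Changes of the blue group against darkness share the dark libraries with the red ones, so the values are only set side by side here.

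Ribosome biogenesis and translation factors were lower in red than in blue more often than higher, and the counts are to be read against the 27% and 23.7% of all models called below and above blue. Of the 72 cytosolic ribosomal proteins 17 were lower in red than in blue and 0 higher, a share of lower calls below that of all models. Of the 74 ribosome biogenesis factors 47 were lower and 3 higher, and of the 72 translation factors 40 and 2. Fatty acid desaturases were lower in red than in blue in 11 of 15 and higher in 2; desaturase 639463 stood at 16.9 and 15.5 FPKM after red and 479 and 559 FPKM after blue (log2 difference −4.92, adjusted p = 5.36e-09). Light harvesting proteins went the other way, with 16 of 26 higher in red than in blue and 4 lower. Each of these list directions was the same on TPM, after centring and after quantile normalization. The member 572644 was at 53.01 and 55.4 FPKM after red and 10.5 and 13.9 FPKM after blue (log2 difference 2.08, adjusted p = 2.05e-06). The member 581022 was at 5.703 and 6.11 FPKM after red and 245 and 292 FPKM after blue (log2 difference −5.28, adjusted p = 5.36e-09).

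Of the models that rose by at least 2-fold after red, 6 were called lower after blue than in darkness, among them light harvesting 572644 and a CD36-family membrane protein (550392), at 29.1 and 26.8 FPKM in darkness, 60.2 and 60.2 FPKM after red and 19.8 and 18.4 FPKM after blue. The reverse held for 13 models that fell by at least 2-fold after red and were higher after blue. A multidrug exporter of the ABC superfamily (539660) was at 299.7 and 288 FPKM in darkness, 80.1 and 97.2 FPKM after red and 387 and 432 FPKM after blue, and a cupin-domain model (591452) at 71.6 and 69.7, then 21.6 and 25.4 and 133 and 173 FPKM. In both, the 3 groups were apart from one another. Light harvesting 581022, an aminotransferase (673205) and the mutase-type phosphatase 560365 were others of the 13.

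In 4 of the 5 named models with the largest excess of red over blue, red differed from darkness by a log2 value of 0.50 or less. A DNA repair protein of the RHP57 type (603275) was at 227 and 224 FPKM in darkness, 298 and 340.2 FPKM after red and 50.2 and 55.9 FPKM after blue (log2 difference of red from blue 2.57, adjusted p = 9.08e-08). A folate-biopterin transporter (34886) was at 45.5 and 43.8, 43.9 and 47.4 and 7.92 and 7.099 FPKM in the same order (2.46, adjusted p = 1.15e-07). An aromatic amino acid hydroxylase (585185) did fall after red, from 632 and 578 to 155 and 150.5 FPKM, and stood at 29.9 and 29.4 FPKM after blue (2.33, adjusted p = 7.81e-08). On the other side, a T-complex 11 domain model (667321) was at 4.76 and 5.43 FPKM in darkness, 4.42 and 5.03 FPKM after red and 1799.8 and 1866 FPKM after blue (−8.32, adjusted p = 1.59e-10). Aureochrome 4 (622551) was at 4.81 and 5.13, 5.798 and 8.03 and 1298 and 1669 FPKM (−7.55, adjusted p = 5.36e-09). For both of these the blue libraries were far above the others. Aureochrome 4 was also called higher after red than in darkness (log2 change 0.39, adjusted p = 0.0475). That call was lost after centring (log2 difference 0.23), and the authors' q-value for it was 0.0872.

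Neighbouring genes changed together in places. Nitrate reductase (590448, scaffold 11, 666534 to 670736, plus strand) and a major facilitator transporter (555711, scaffold 11, 662502 to 665652, minus strand) are divergent neighbours, and the transporter went from 7.47 and 7.33 FPKM in darkness to 17.9 and 19.8 FPKM after red (log2 change 1.24, adjusted p = 5.48e-06). The mannosidase 645801 and the elongase 572755, both among the 10 largest falls, are tandem neighbours on scaffold 1. Potassium channel model 585970 and an ankyrin-repeat channel model (526942, 4.44 and 3.29 FPKM in dark and 20.5 and 22.5 FPKM in red libraries, log2 change 2.22, adjusted p = 1.82e-06) are tandem neighbours on scaffold 8. Over neighbouring tested pairs without overlap, Pearson's r of the log2 differences across genes was 0.295 for 1253 divergent pairs, 0.275 for 1492 tandem pairs and 0.109 for 1248 convergent pairs. These are descriptions: genes are not independent replicates, and the pairs share libraries and levels.

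Among models without any description, 926 of 2960 tested rose and 878 fell, an order that turned with centring and quantile normalization. The largest rise by the same rule was that of 604809 (scaffold 30, 134108 to 134899), from 25.6 and 27.8 FPKM in darkness to 228 and 229 FPKM (log2 change 3.05, adjusted p = 8e-08), the convergent neighbour of RNA helicase 249082. The largest fall was that of 431987 (scaffold 85, 23662 to 25275), from 249 and 246 to 9.54 and 13.96 FPKM (log2 change −4.31, adjusted p = 1.32e-07). Both red libraries were apart from both dark libraries in each.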

How the data were processed

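Polyadenylated RNA of 6 libraries (dark, red and blue, 2 each) had been made into Illumina TruSeq stranded libraries, per the labels' protocols. The deposited table gives FPKM and TPM per library for the Nanoce1779_2 gene models, with the authors' log2 ratios and p-values and q-values, per the file headers. Per the submitters' processing notes the tools were FastQC, TopHat, Cufflinks, Cuffnorm and Cuffdiff. The sources used here give neither their settings nor whether counting used strand, so reads of overlapping models cannot be told apart. In each library TPM was FPKM times a constant.

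The 9087 models whose FPKM averaged 1 or more were fitted on log2(FPKM + 1) with limma 3.58.1 in R 4.3.3: all 6 libraries, 1 mean per group, 3 residual degrees of freedom, a trend in the variance, two-sided tests and Benjamini-Hochberg adjustment over all models. Log2 changes are on that scale, which understates changes of low models; each SE is limma's. The script was tested on simulated data. Alternatives were TPM, median centring, quantile normalization, pseudocounts of 0.1 and 5, filters on low values, no trend, 4 libraries, a replicate block and leaving out each library. The members and lists were chosen with earlier results of these data known. Lists came from word matches in the descriptions. Named models were the 10 largest rises and falls among described models without overlap called on FPKM, TPM and centred values; up to 2 rises and 2 falls of at least 2-fold per list; the 10 highest in dark and in red; the 5 largest differences each way against blue; and 2 undescribed models each way. Other named models were chosen after their values were seen. No sequences are shown.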

Additional observations from a re-analysis of the deposited data

How the results depend on the processing

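On TPM 4958 models were higher and 1459 lower, of which 1422 and 235 by at least 2-fold; median centring gave 358 rises and 838 falls of at least 2-fold, and a pseudocount of 5 gave 324 such rises. The cause of these shifts was not tested. The other alternatives left each of these counts within 1.5 times of the values reported. Leaving out 1 library at a time gave 2471 to 3268 higher and 2149 to 2852 lower models, and 529 to 643 rises and 539 to 576 falls of at least 2-fold. The red and dark libraries alone gave 3262 and 2860.

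The labels do not say whether replicate numbers pair the libraries, and deviations from the group means correlated across models at −0.0818 (red and dark), 0.34 (red and blue) and 0.0915 (dark and blue). With the replicate block 3151 models were higher and 2746 lower, 566 and 539 by at least 2-fold, and red was above blue in 2255 and below in 2603.

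Of 5517 recalculated values of named models 5461 kept direction and call, 24 lost the call, 14 gained it and 18 changed sign; the cause was not tested. Against their values on FPKM, 594843 was 0.0607 on TPM and 0.46 with quantile normalization, 596096 was 0.31 and 0.80, 594422 was 0.13 and 0.59, 611953 was 0.32 and 0.26, and 540028 was 0.34 on TPM. With quantile normalization alone 590642 was 0.10, 601927 0.0144, 575683 0.20 and 582424 (aureochrome 3) 0.12. The calls lost with quantile normalization included those of 535301 (Hsp90, −0.0745), 195348 (Hsc70, −0.106) and 530268 (1-deoxyxylulose-5-phosphate synthase, −0.088). Leaving out 1 library gave −0.0931 to 0.0128 for 596096, −0.0325 to 0.0271 for 540028 and −0.101 to 0.0359 for 611953. The absolute depth behind FPKM is unknown, so counting error of low models could not be given.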
